A study of Mus musculus with 95 samples.

Results

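Tcf7l2, Prkcd, Lef1, Gbx2 and Slc17a6 are genes whose messenger RNA is abundant in the mouse thalamus. They were followed in cortex of mice with a knock-in Huntington's disease allele. The members were chosen by name: their rows were read from the deposited tables of estimated counts and of FPKM by Ensembl identifier and symbol, which gave 5 genes of 39179. The libraries were made from cortex of C57BL/6 mice aged 6 or 10 months, of both sexes. Het (Q20), Het (Q50), Het (Q92) and Het (Q140) mice each carried 1 knock-in copy of huntingtin whose CAG repeat length, 20, 50, 92 or 140 by the labels, names the line. Wild types came from cages shared with Q20 mice (WTwithQ20) or with Q50 mice (WTwithQ50). Q92 and Q140 animals were caged by line, and wild types from cages of those lines were not analysed here. Each line or wild-type group had 8 libraries at each age, 4 per sex, except for 7 of Q140 mice at 10 months, and the 95 libraries came from 24 groups of line, age and sex. The labels number libraries within a group and do not say that each is a separate animal, so p-values measure the spread between libraries, which may be partly technical.

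The thalamus relays sensory and motor signals to the cortex through excitatory neurons whose cell bodies lie outside it. Tcf7l2 and Lef1 are transcription factors of the same family that carry canonical Wnt signals to target genes when bound by beta-catenin. In the adult mouse forebrain Tcf7l2 marks thalamic and habenular neurons, and it is also present in oligodendrocytes that are starting to differentiate. Lef1 is made in the thalamus and in the endothelium of brain vessels. Gbx2 is a homeobox transcription factor needed for thalamic neurons to form in the mouse embryo, and it is also known from cholinergic neurons of the mouse forebrain. Prkcd encodes the delta isoform of protein kinase C, abundant in thalamic relay neurons and in part of the amygdala. Slc17a6 encodes the vesicular glutamate transporter VGLUT2, the form used by most subcortical glutamatergic neurons, whereas most cortical neurons use Slc17a7.

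Promoters are shown for Tcf7l2, Prkcd and Gbx2, whose lowest group medians at 6 months were those of Q92 or Q140 mice. A promoter here is the 300 bases from 250 before to 50 after a start site, taken from RefSeq on GRCm38.p6. All 5 members matched that table, with 11 promoters between them. The core of the site bound by Tcf7l2 and Lef1, CTTTGA or its reverse complement TCAAAG, was searched on both strands, and capitals mark a match.
Tcf7l2, chr19:55741560-55741859, plus strand: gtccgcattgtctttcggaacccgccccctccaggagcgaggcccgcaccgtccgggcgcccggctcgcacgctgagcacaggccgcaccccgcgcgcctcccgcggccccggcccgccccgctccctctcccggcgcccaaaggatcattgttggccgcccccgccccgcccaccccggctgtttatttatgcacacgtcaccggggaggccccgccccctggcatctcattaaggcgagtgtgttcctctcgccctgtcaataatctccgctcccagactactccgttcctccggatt
Prkcd, chr14:30626159-30626458, minus strand: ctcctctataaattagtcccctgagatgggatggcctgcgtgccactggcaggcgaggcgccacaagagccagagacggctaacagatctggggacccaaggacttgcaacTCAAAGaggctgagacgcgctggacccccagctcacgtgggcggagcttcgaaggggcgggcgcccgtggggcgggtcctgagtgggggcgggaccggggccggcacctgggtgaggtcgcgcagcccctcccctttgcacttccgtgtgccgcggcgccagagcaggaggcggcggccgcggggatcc
Gbx2, chr1:89931127-89931426, minus strand: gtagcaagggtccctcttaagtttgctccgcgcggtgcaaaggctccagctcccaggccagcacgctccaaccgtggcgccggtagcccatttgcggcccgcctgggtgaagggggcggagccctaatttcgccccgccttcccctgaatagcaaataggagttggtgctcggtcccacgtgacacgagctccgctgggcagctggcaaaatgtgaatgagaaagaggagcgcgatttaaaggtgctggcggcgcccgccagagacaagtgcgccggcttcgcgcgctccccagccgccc
The Prkcd promoter shown held 1 match, 139 bases before the start site (position -139), and the other 2 shown held none. Over all members 2 of the 11 promoters held a match, the other being 1 of the 4 of Lef1, with 2 matches. The other promoter of Prkcd, that of Tcf7l2 and both of Slc17a6 held none. Of 32851 mouse promoters of this length, 16% held at least 1 match. A match is a string of letters and does not show that a factor binds there.

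Library totals of estimated counts ran from 30.3 M to 41.1 M, with a median of 34.1 M. Mitochondrially encoded genes took between 9.08% and 14.7% of counts, and 2 libraries exceeded 13%. Markers of cortical excitatory neurons were present in every library: Slc17a7 ranged from 759 to 1180 and Tbr1, a transcription factor of deep cortical layers, from 95.1 to 150 on the counts-per-million scale (CPM, not scaled by gene length). Genes of other regions were also present. A list of 10 striatal projection neuron genes ranged from 230 CPM in 1 library of Q140 mice at 6 months to 1270 CPM in 1 library of Q20 mice at 10 months. The level of such genes is given beside the results with which it moved, and its part in those results was not tested. In tissue RNA, fewer cells of a type and less RNA per cell cannot be told apart.

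All members were detected, at very unequal levels. On the length-scaled FPKM, Slc17a6 averaged 7.29, Prkcd 6.31, Lef1 1.96, Tcf7l2 1.55 and Gbx2 0.0747 over the 95 libraries. Slc17a7, the cortical partner of Slc17a6, lay far higher, with a mean between 303 and 354 FPKM in the 12 groups of line and age. Gbx2 had no count in 11 libraries and fewer than 5 counts in 43, and its highest count was 55. A count of 0 at these depths allows up to 3 counts, which is 0.0813 to 0.0946 CPM in those 11 libraries. These intervals and limits cover counting error only.

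The members differed in how much they varied between libraries. The standard deviation of log2 CPM over all libraries was 1.66 for Gbx2, 0.41 for Prkcd, 0.41 for Tcf7l2, 0.23 for Slc17a6 and 0.18 for Lef1. Within groups of line, age and sex it was larger at 10 months than at 6 months for Prkcd, 0.45 against 0.22, and for Tcf7l2, 0.42 against 0.26. The group medians of Tcf7l2 at 6 months ran, from high to low, WTwithQ20, Q20, WTwithQ50, Q50, Q140 and Q92, and the ranges of every neighbouring pair overlapped. That held for neighbours in the order of each member at each age.

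**Figure D1:**
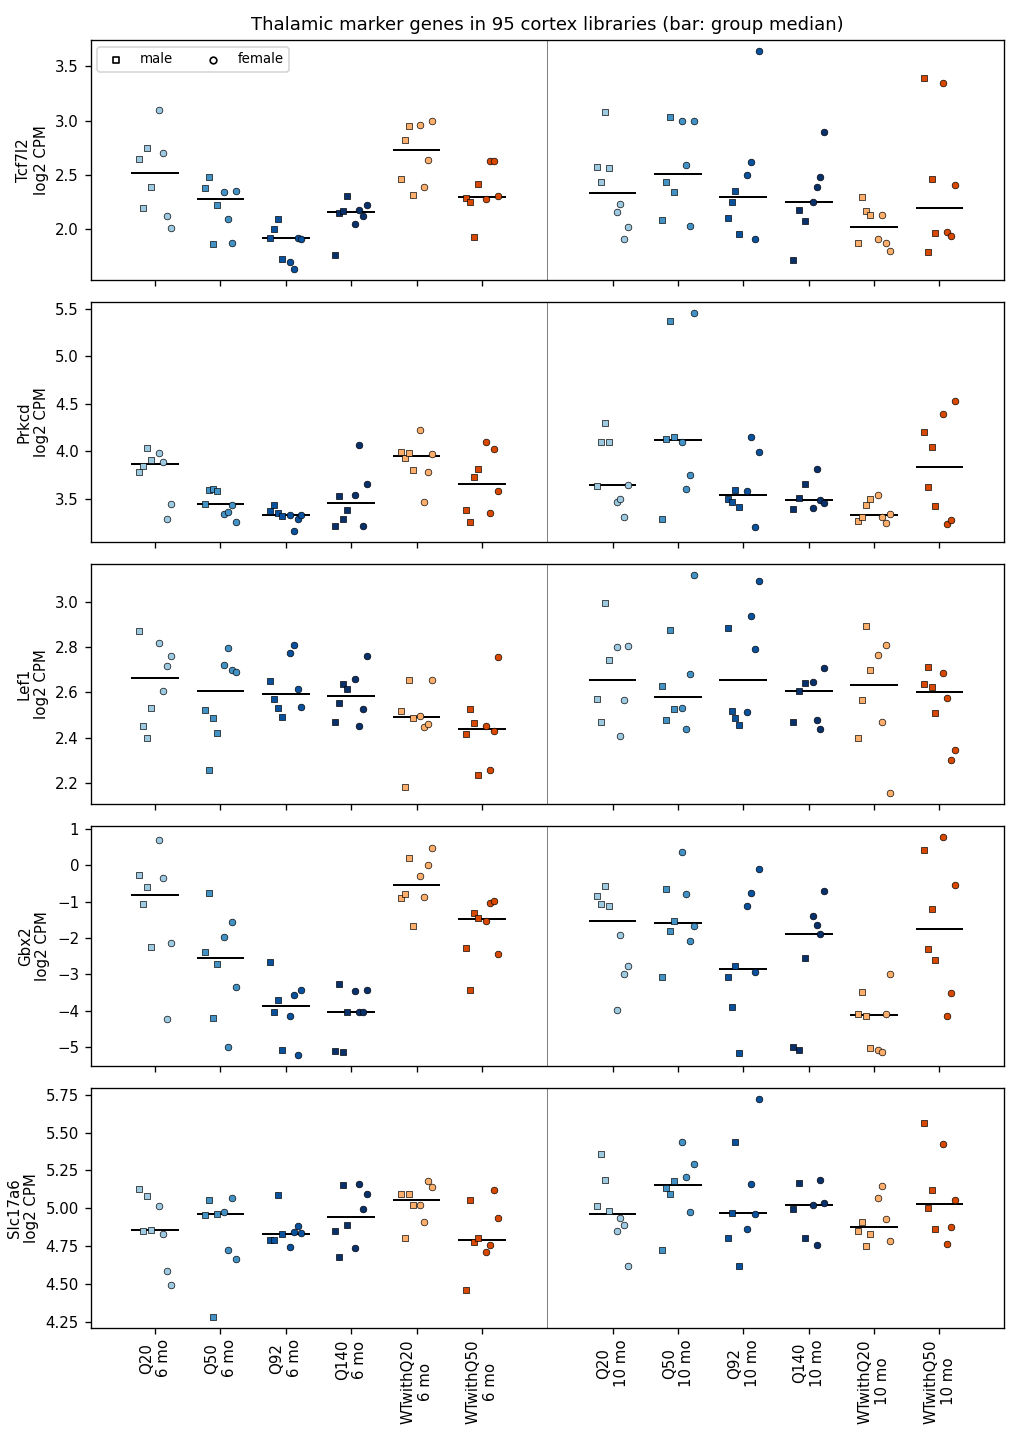
Log2 CPM (prior count 1) of each member in every library, by line or wild-type group at 6 months (left) and 10 months (right), with squares for males, circles for females and a bar at the group median. The lowest group medians of Tcf7l2, Prkcd and Gbx2 at 6 months were those of Q92 or Q140, and a few libraries at 10 months stood far above their groups.

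The comparison of each line with wild type asks whether a longer CAG repeat goes with a changed level of these genes. Q20 and Q50 mice were set against the wild types of their own cages, and Q92 and Q140 mice against the mean of both wild-type groups on the log scale. Wild types from Q92 or Q140 cages were not analysed, so line and housing cannot be told apart for Q92 and Q140. Each fit covered all libraries of an age with sex as a covariate, by edgeR's quasi-likelihood test on counts, and p-values were adjusted over all genes tested by the Benjamini-Hochberg method with a threshold of 0.05. All 5 members passed the filter on low counts. Gbx2 passed it only through groups where it was high, since no Q92 or Q140 library at 6 months had more than 4 counts of it. It is therefore described by its counts at that age and left out of the numbers of members called there.

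In cortex of Q92 mice at 6 months 2 members were lower than in wild types, Tcf7l2 and Prkcd. Of all genes tested in that comparison, 7.83% passed the threshold and 4.53% were lower. Tcf7l2 ranged from 3.08 to 4.26 CPM in the 8 Q92 libraries (median 3.74), against 4.96 to 7.98 CPM (median 6.63) in WTwithQ20 and 3.78 to 6.17 CPM (median 4.90) in WTwithQ50. All 8 Q92 libraries lay below the mean of the wild types and 6 below their lowest library, so the groups overlapped in 2 libraries. Of those 6, female replicates 3 and 4 and male replicate 1 held 3.77, 3.73 and 3.76 CPM. The lowest wild type, WTwithQ50 male replicate 3, held 3.78 CPM, so these are not told apart from it. The log2 fold change of Tcf7l2 was -0.67 ± 0.11 (SE, adjusted p = 4e-05).

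Prkcd, the kinase, showed a smaller difference. It ranged from 8.94 to 10.8 CPM in Q92 libraries (median 10.0), against 11 to 18.6 CPM (median 15.5) in WTwithQ20 and 9.51 to 17.1 CPM (median 12.5) in WTwithQ50. Every Q92 library lay below the wild-type mean, and 1 lay below the lowest wild type, so the ranges overlapped. Its log2 fold change was -0.47 ± 0.10 (adjusted p = 0.0012). The Q92 libraries were also closer together, at 9.99 ± 0.53 CPM (SD, n = 8), than the wild types, whose SD was 2.7 CPM (n = 16).

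Gbx2, the homeobox gene, was near the limit of detection in Q92 mice. It ranged from 0 to 0.127 CPM in Q92 libraries (median 0.0407), against 0.281 to 1.37 CPM (median 0.670) in WTwithQ20 and 0.0625 to 0.474 CPM (median 0.326) in WTwithQ50. Of the Q92 libraries, 7 lay below the lowest wild type and 1 overlapped. That wild type, WTwithQ50 male replicate 2, held 2 counts (0.0625 CPM), so this order turns on single counts and on library size. Q92 female replicates 2 and 4 and male replicate 3 held 2 counts too and are not told apart from it. Summed over 8 libraries each, there were 12 counts in Q92, 210 in WTwithQ20 and 80 in WTwithQ50.

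Within one sex, Prkcd in Q92 females had a log2 fold change of -0.565 (adjusted p = 0.077) and Tcf7l2 in Q92 males one of -0.50 (adjusted p = 0.065), which missed the threshold by edgeR. Against WTwithQ50 alone, Prkcd had -0.36 (adjusted p = 0.061).

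In Q140 mice at 6 months 1 member was lower, Tcf7l2, where 3.52% of all genes passed the threshold and 2.13% were lower. Tcf7l2 ranged from 3.36 to 4.91 CPM in Q140 libraries (median 4.44), with the wild types as above. All 8 lay below the wild-type mean, yet only 1 lay below the lowest wild type. The log2 fold change was -0.41 ± 0.11 (adjusted p = 0.02 by edgeR). That call ended without the lowest library, Q140 male replicate 1 (adjusted p = 0.064), and against WTwithQ50 alone the fold change was -0.23 (adjusted p = 0.49).

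Gbx2 in Q140 mice ranged from 0 to 0.078 CPM (median 0.0306), with 7 of 8 libraries below the lowest wild type and 2 at a count of 0. That wild type held 2 counts, as did Q140 female replicates 1 and 4, so these are not told apart from it. Prkcd in Q140 mice had a median of 11 CPM within 9.23 to 16.7 CPM, and its log2 fold change of -0.285 ± 0.099 missed the threshold (adjusted p = 0.11 by edgeR). Female replicate 2 held the highest Prkcd of the Q140 libraries, and without it the value was -0.38 (adjusted p = 0.012).

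Lef1 and Slc17a6 did not pass the threshold in either line. Lef1 had a median of 6.01 CPM in Q92 and 5.97 CPM in Q140 libraries, against 5.60 CPM in WTwithQ20 and 5.40 CPM in WTwithQ50. The ranges overlapped throughout, and the log2 fold changes were 0.16 (95% interval 0.03 to 0.28, adjusted p = 0.11) in Q92 and 0.12 (adjusted p = 0.35) in Q140 by edgeR. Slc17a6, the transporter, had a median of 28.5 CPM in Q92 and 30.8 CPM in Q140 libraries, against 33.2 CPM in WTwithQ20 and 27.6 CPM in WTwithQ50. Its log2 fold change was -0.08 (95% interval -0.24 to 0.08) in Q92 and 0.02 (95% interval -0.14 to 0.18) in Q140. The 2 wild-type groups thus lay on either side of both lines.

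**Figure D2:**
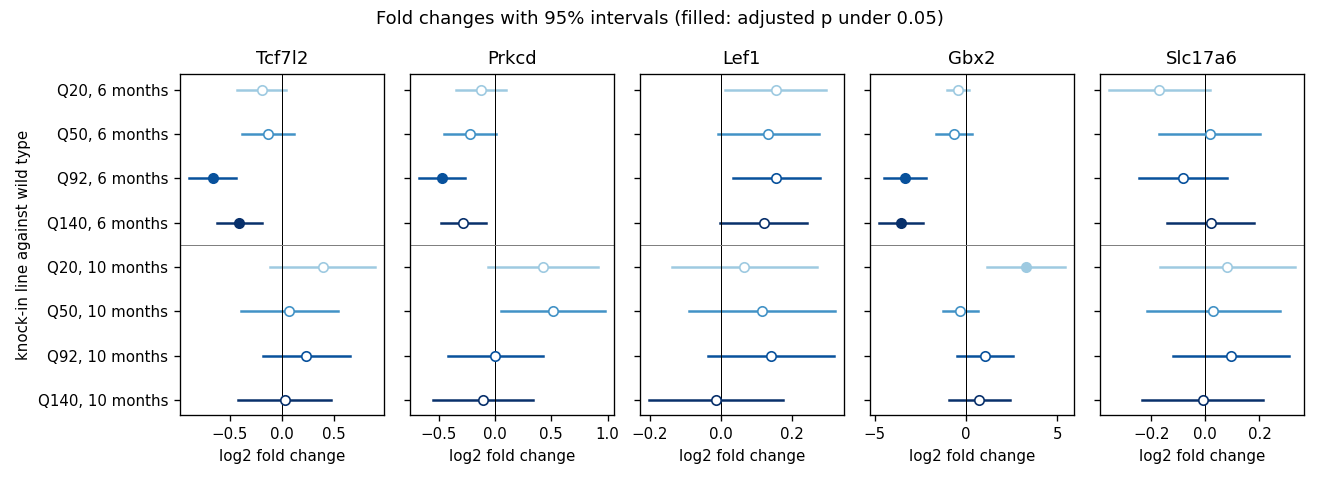
Log2 fold change of each member (x axis, with its own scale per panel) for each knock-in line against wild type at 6 and 10 months, with 95% intervals and filled points at an adjusted p under 0.05. The filled points are Tcf7l2, Prkcd and Gbx2 in Q92 and Tcf7l2 and Gbx2 in Q140 at 6 months, all lower, and Gbx2 in Q20 at 10 months, higher, and Gbx2 entered these fits only through groups where it was high.

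Shorter repeats gave no call at 6 months. In Q20 mice 0 members passed the threshold by edgeR, DESeq2 or limma-voom, where 0.0169% of all genes passed. An unadjusted p under 0.05 was found for 1 member, Lef1, and for 398 of the 17716 genes tested. In Q50 mice 0 members passed by those tools, where 0.0226% of all genes passed. There 0 members had an unadjusted p under 0.05, against 1045 of the 17716 genes tested. Tcf7l2 ranged from 4.01 to 8.55 CPM in Q20 libraries (median 5.71) and from 3.62 to 5.57 CPM in Q50 libraries (median 4.84). Both ranges overlapped those of their wild types, and the log2 fold changes were -0.19 ± 0.12 in Q20 and -0.14 ± 0.12 in Q50.

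Over the 4 knock-in lines at 6 months the slope on repeat length, on the log2 scale per 100 repeats, was -0.36 ± 0.11 for Tcf7l2 (adjusted p = 0.10 by edgeR) and -0.21 ± 0.09 for Prkcd (adjusted p = 0.34). Both missed the threshold, where 1.78% of all genes passed and 1.35% had a negative slope. No slope is given for Gbx2, for the reason above. The lines were also housed apart, so repeat length and housing cannot be told apart in this slope.

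A further 15 genes known for expression in the thalamus were examined. In Q92 mice at 6 months 5 of the 15 were lower and 1 was higher, where 7.83% of all genes passed and 4.53% were lower. The median log2 fold change over the list was -0.17, against 0.00 over all genes. Zic1, a zinc finger transcription factor, ranged from 8.70 to 12.8 CPM in Q92 libraries (median 10.2), against 12.5 to 30.8 CPM (median 25.7) in WTwithQ20 and 12.8 to 35.3 CPM (median 18.6) in WTwithQ50. Of the Q92 libraries, 7 lay below the lowest wild type, and the log2 fold change was -1.11 ± 0.19 (adjusted p = 8.6e-05 by edgeR).

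The other 4 that were lower in Q92 were Zic4, its neighbour in the genome and the family, with -0.78, the LIM homeobox gene Lhx9 with -1.39, the neuronal membrane protein gene Slitrk6 with -1.32 and Amotl1 with -0.29. Ramp3, which encodes a partner of calcitonin-type receptors, was higher by 0.25 ± 0.075. Rora, Ntng1, Plekhg1 and Adarb1, among the more abundant genes of the list, had log2 fold changes between -0.08 and 0.13 and did not pass. In Q140 mice 3 of the 15 were lower, Zic1 (-0.90), Zic4 (-0.49) and Slitrk6 (-1.16), and none was higher. Of all genes 3.52% passed there and 2.13% were lower. The list's median there was also -0.17.

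**Figure D3:**
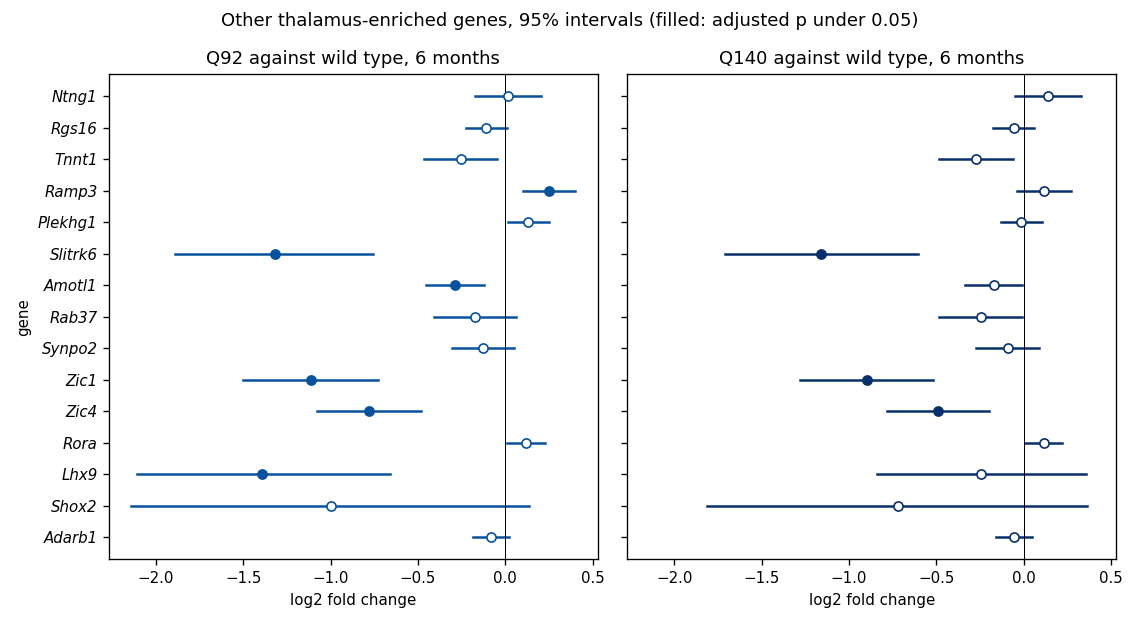
Log2 fold change at 6 months of 15 other thalamus-enriched genes in Q92 (left) and Q140 (right) mice against wild type, with 95% intervals and filled points at an adjusted p under 0.05. Zic1, Zic4 and Slitrk6 are filled below zero in both panels, while Ntng1, Rora and Adarb1 lie near zero.

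Markers of other regions moved in the same comparisons, where 4.53% of all genes were lower in Q92 and 2.13% in Q140. In Q92 mice at 6 months all 4 tested genes of forebrain cholinergic neurons were lower, with a median log2 fold change of -3.51, and in Q140 mice all 4 were lower with a median of -3.05. Their summed level ranged from 1.12 to 2.49 CPM in Q92 libraries and 1.25 to 3.31 CPM in Q140 libraries, against 12 to 24.7 CPM in WTwithQ20 and 6.16 to 15.1 CPM in WTwithQ50, with no overlap. Of its markers, Lhx8, a LIM homeobox gene of these neurons, was at 0 in 2 Q92 and 3 Q140 libraries and in no wild-type library at 6 months.

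Gbx1, the homeobox gene most like Gbx2, averaged 0.154 ± 0.061 CPM in Q92 libraries and 0.196 ± 0.12 CPM in Q140 libraries (SD, n = 8 each), against 1.2 ± 0.50 CPM in wild types (SD, n = 16). All 10 striatal projection neuron genes were lower in both lines, with medians of -1.34 in Q92 and -1.28 in Q140. Their summed level was 245 to 318 CPM in Q92 and 230 to 357 CPM in Q140 libraries, against 559 to 912 CPM in WTwithQ20 and 377 to 566 CPM in WTwithQ50. Of 10 tested hypothalamic genes, 6 were lower in Q92 and 3 in Q140, against 4.53% and 2.13% of all genes. Among tested habenula genes, Chrna3 was lower in Q92 (-0.94, adjusted p = 0.039 by edgeR) and Chrnb3 higher (0.44, adjusted p = 0.0041). None of them passed in Q140. The part of these regions in the values of Gbx2, Tcf7l2 and Prkcd was not tested.

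Cell types inside the cortex that also express a member were examined in the same way. The median log2 fold changes of 9 brain endothelial genes, 0.03 in Q92 and 0.02 in Q140, and of 6 genes of differentiating oligodendrocytes, -0.02 and -0.04, were close to 0. None of the endothelial genes passed in either line, and of the oligodendrocyte genes 1 was higher in Q140, where 3.52% of all genes passed.

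Genes of the members' own pathways were counted against the shares of all genes given above. Of 23 Wnt pathway genes 3 were lower in Q92, where 7.83% of all genes passed and 4.53% were lower: the ligands Wnt7a (-0.42 ± 0.07, adjusted p = 1e-04) and Wnt2 (-0.29 ± 0.09), and Ctnnb1, which encodes beta-catenin (-0.07 ± 0.02). In Q140, where 3.52% passed and 2.13% were lower, Wnt2 was lower (-0.32 ± 0.09) and so was Tcf7, a further member of the Tcf7l2 and Lef1 family (-0.36 ± 0.08, adjusted p = 0.0027). The median over the list was -0.02 in Q92 and 0.01 in Q140. Of 8 other protein kinase C genes 1 was lower in both lines, Prkch, the eta isoform, which averaged 4.12 ± 0.29 CPM in Q92 and 4.32 ± 0.35 CPM in Q140 libraries (SD, n = 8 each), against 6.43 ± 1.4 CPM in wild types (SD, n = 16). Neither Slc17a7 nor Slc17a8, the other vesicular glutamate transporters, passed in either line.

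At 10 months Tcf7l2, Prkcd, Lef1 and Slc17a6 passed the threshold in none of the lines by edgeR. The only member past it was Gbx2, in Q20 mice, where 4.35% of all genes passed and 2.56% were higher. It ranged from 0.0317 to 0.647 CPM in Q20 libraries (median 0.332), against 0 to 0.0942 CPM in WTwithQ20 (median 0.0289). Of the Q20 libraries 7 lay above the highest WTwithQ20 library, and 1 overlapped. Of those 7, Q20 female replicate 3 held 3 counts (0.0946 CPM), against 2.96 counts (0.0942 CPM) in that WTwithQ20 library. These values are not told apart. The counts summed to 85.4 in Q20 and 8.44 in WTwithQ20 over 8 libraries each, and the fitted log2 fold change was 3.28 ± 1.1 (adjusted p = 0.048). Gbx2 entered this test only through groups where it was high, so the call is given as a description.

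It was also close to the threshold. It held in 21 of 47 fits that each left out 1 library, with fold changes between 3.01 and 3.69 and adjusted p between 0.021 and 0.11. Against the mean of both wild-type groups the fold change was 1.25 (adjusted p = 0.32). In the same comparison all 4 tested cholinergic genes were higher, with a median of 3.43, as were all 10 striatal genes, with a median of 1.48. The cholinergic sum was 1.61 to 28.4 CPM in Q20 libraries, against 0.976 to 2.36 CPM in WTwithQ20.

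In Q50, Q92 and Q140 mice at 10 months 0 members passed by edgeR, DESeq2 or limma-voom, where 0.0561%, 0.853% and 1.2% of all genes passed. The count of members with an unadjusted p under 0.05 was 1 in Q50, Prkcd, and 0 in Q92 and in Q140. Of the 17813 genes tested, 428 had such a p in Q50, 2499 in Q92 and 2289 in Q140. Prkcd ranged from 9.70 to 43.9 CPM in Q50 libraries (median 17.3), against 9.37 to 23.0 CPM in WTwithQ50 (median 14.4). Of the Q50 libraries 2 exceeded the highest WTwithQ50 library, and the log2 fold change of 0.52 ± 0.23 did not pass (adjusted p = 1).

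Tcf7l2 at 10 months ranged from 3.74 to 12.5 CPM in Q92 libraries (median 4.90) and from 3.26 to 7.40 CPM in Q140 libraries (median 4.73), against 3.45 to 4.87 CPM in WTwithQ20 (median 4.03) and 3.44 to 10.5 CPM in WTwithQ50 (median 4.59). The groups overlapped widely, with log2 fold changes of 0.23 ± 0.21 in Q92 and 0.03 ± 0.22 in Q140. Of the 15 other thalamus-enriched genes 1, Amotl1, was higher in Q20 (0.36 ± 0.11), and none passed in the other lines at 10 months.

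Age and cohort cannot be told apart, since no mouse has libraries of both ages by the labels. Whether a line's difference from wild type changed between ages was tested in 1 fit of all libraries. In Q92 mice it changed for Tcf7l2, by 0.90 ± 0.24 on the log2 scale (adjusted p = 0.0081), and for Gbx2, by 4.41 ± 1.0 (adjusted p = 0.001), where 9.63% of all genes passed by edgeR and 5.88% had a positive value. A positive value means that the line stood higher against wild type at 10 months than at 6 months. For Gbx2 it also changed in Q140, by 4.31 ± 1.1 (adjusted p = 0.019, with 1.79% of all genes passing and 1.22% positive), and in Q20, by 3.71 ± 1.0 (adjusted p = 0.039, with 0.693% passing and 0.561% positive). The Gbx2 values rest on groups with a few counts in all and are given as a description.

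Markers of other regions passed in the same comparisons. In Q92 all 4 tested cholinergic genes passed with positive values, between 3.41 and 7.41, as had all 5 olfactory bulb genes, between 2.68 and 8.47, 8 of 10 striatal genes, 6 of 10 hypothalamic genes, 5 of the 15 other thalamus-enriched genes, of which 1 more was negative, and 2 of 5 habenula genes, Chrnb4 (2.59) and Chrna3 (2.47). In Q140 all 4 cholinergic and 8 striatal genes passed with positive values, and in Q20 all 4 and 7, while no olfactory bulb, habenula or other thalamus-enriched gene passed in either by edgeR. Gbx1 passed in all of these lines, with 4 in Q92, 3.44 in Q140 and 3.69 in Q20. Chrnb4 and Chrna3 averaged 1.15 ± 1.7 and 1.62 ± 2.3 CPM in Q92 libraries at 10 months (SD, n = 8). Female replicate 4 held 5.26 and 7.28 CPM of them and was the only Q92 library above the highest wild type. The part of these regions in the members' values was not tested.

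In Q50 mice 0 members changed between ages by edgeR, DESeq2 or limma-voom, and 1, Prkcd, had an unadjusted p under 0.05. Over all genes that comparison had 0% called, with 750 genes at an unadjusted p under 0.05. The values changed with the wild types used. Against WTwithQ50 alone, the Q92 values were 0.46 for Tcf7l2 (adjusted p = 0.45) and 1.71 for Gbx2 (adjusted p = 0.45), and the Q140 value was 1.60 for Gbx2 (adjusted p = 0.76). Against the mean of both wild-type groups, the Q20 value was 1 for Gbx2 (adjusted p = 0.69). Against WTwithQ20 alone, the Q92 value was 1.34 for Tcf7l2 (adjusted p = 0.00025) and the Q140 value was 0.88 (adjusted p = 0.038). Without Q92 female replicate 4 at 10 months, the Tcf7l2 value in Q92 was 0.64 (adjusted p = 0.07).

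The 2 wild-type groups, which differ by label only in the mice they were housed with, also differed from each other. At 10 months Gbx2 was lower in WTwithQ20, where it ranged from 0 to 0.0942 CPM, than in WTwithQ50, where it ranged from 0.0281 to 1.68 CPM (median 0.289). All 8 WTwithQ20 libraries lay below the WTwithQ50 mean and 3 below its lowest library. Those 3 held 0 counts and the lowest WTwithQ50 library held 1, so they are not told apart. The log2 fold change was -4.06 ± 0.91 (adjusted p = 0.0039 by edgeR), where 7.03% of all genes passed and 3.63% were lower, and here too Gbx2 entered the test only through groups where it was high. Tcf7l2 (-0.52 ± 0.24, adjusted p = 0.19) and Prkcd (-0.55 ± 0.24, adjusted p = 0.15) did not pass.

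In that comparison the 4 cholinergic genes were lower with a median of -3.22, all 10 striatal genes were lower with a median of -1.32, and 3 of the 15 other thalamus-enriched genes were lower, Zic1, Zic4 and Slitrk6. Without the 3 libraries with Tcf7l2 above 10 CPM, of which 2 belong to WTwithQ50, the Gbx2 value was -2.85 (adjusted p = 0.086). At 6 months 0 members passed between the wild-type groups by edgeR, DESeq2 or limma-voom, where 0.0903% of all genes passed. An unadjusted p under 0.05 was found for Tcf7l2 and Slc17a6, and for 1447 of the 17716 genes tested. Tcf7l2 was higher in WTwithQ20 by 0.36 ± 0.12 (adjusted p = 0.25 by edgeR) and Slc17a6 by 0.19 ± 0.093 (adjusted p = 0.59). Gbx2 entered this test only through groups where it was high, so its values are given as a description. At 6 months it had 0.765 ± 0.37 CPM in WTwithQ20 and 0.295 ± 0.15 CPM in WTwithQ50 (SD, n = 8 each). Its log2 fold change was 1.34 ± 0.36 (unadjusted p = 0.00033, adjusted p = 0.13 by edgeR).

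By the labels no mouse has libraries of both ages, so age and cohort cannot be told apart. Between ages, over the mean of both wild-type groups, Gbx2 was lower at 10 months, where 23% of all genes passed and 13.4% were lower. Its log2 fold change was -1.84 ± 0.51 (adjusted p = 0.003 by edgeR). Gbx2 entered this test only through groups where it was high, so the call is given as a description. It averaged 0.293 ± 0.51 CPM at 10 months and 0.530 ± 0.36 CPM at 6 months (SD, n = 16 each). The lower mean lay in WTwithQ20, with 0.0302 CPM at 10 months and 0.765 CPM at 6 months. In WTwithQ50 the mean was higher at 10 months, 0.556 CPM against 0.295 CPM, though the median was lower. The order of the 2 wild-type groups was opposite at the 2 ages: WTwithQ20 had medians of 0.0289 CPM at 10 months and 0.670 CPM at 6 months, and WTwithQ50 had 0.289 CPM at 10 months and 0.326 CPM at 6 months. Tcf7l2 (-0.25 ± 0.13, adjusted p = 0.18) and the other members did not pass. In the same comparison all 4 cholinergic genes were lower, between -1.32 and -3.18, as were Gbx1 (-1.75), all 10 striatal genes with a median of -0.82, 4 of 10 hypothalamic genes and 4 of 5 olfactory bulb genes, Eomes (-2.65), Th (-1.20), Doc2g (-1.15) and Cdhr1 (-0.84). The part of these regions in the Gbx2 value was not tested.

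Between the sexes 0 members passed by edgeR, DESeq2 or limma-voom at either age, where 2.37% of all genes passed at 6 months and 3.49% at 10 months. The count at an unadjusted p under 0.05 was 1 at 6 months, Lef1, and 0 at 10 months. Over all genes it was 2480 of 17716 at 6 months and 3220 of 17813 at 10 months. Lef1 averaged 5.65 ± 0.57 CPM in male and 6.15 ± 0.63 CPM in female libraries at 6 months (SD, n = 24 each), a log2 fold change of -0.13 ± 0.04 (adjusted p = 0.083). The repeat-length slope at 10 months gave 0 members by those tools, where 0.891% of all genes passed. At an unadjusted p under 0.05 it gave 0 members, against 2307 of the 17620 genes tested.

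A few libraries at 10 months stood far above the rest. They were picked after their values were seen, and no test was made of them. Prkcd was 43.9 CPM in Q50 female replicate 4 and 41.5 CPM in Q50 male replicate 3, while the 42 libraries outside these and the 3 named next ranged from 9.19 to 23.0 CPM with a median of 11.3 CPM. Of the 15 other thalamus-enriched genes, all lay above the median of those 42 libraries in both, and 10 and 8 lay above the highest. Shox2, a homeobox gene of the thalamus, had 3.32 and 3.02 CPM there against a median of 0.153 CPM, and Synpo2 had 15.8 and 14.9 CPM against 6.97 CPM. Gbx2 was 0.289 and 0.257 CPM in them, against a median of 0.127 CPM, and Tcf7l2 was 7.96 and 8.19 CPM, against a median of 4.48 CPM and a highest value of 8.43 CPM in the 42 libraries.

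Tcf7l2 was highest in other libraries: 12.5 CPM in Q92 female replicate 4, and 10.5 CPM in WTwithQ50 male replicate 1 and 10.2 CPM in WTwithQ50 female replicate 1, where the 42 libraries reached 8.43 CPM. The other thalamus-enriched genes were high there too: 13 of 15 lay above the median of the 42 libraries in the Q92 library, 15 in the male and 12 in the female WTwithQ50 library, and 6, 6 and 4 lay above the highest. Slc17a6 was 52.7 CPM in the Q92 library, and 47.2 and 43.0 CPM in the male and the female WTwithQ50 library, against a median of 31.4 CPM. Prkcd was 15.8 CPM in the Q92 library, and 18.4 and 21 CPM in the WTwithQ50 libraries, against a median of 11.3 CPM. Gbx2 was 0.907 CPM in the Q92 library, and 1.31 and 1.68 CPM in the WTwithQ50 libraries.

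Cholinergic markers lay above the median of the 42 libraries in the same 3 libraries, but most did not set them apart. Lhx8 was 2.09 CPM in the Q92 library, and 3.48 and 4.03 CPM in the male and the female WTwithQ50 library, against a median of 0.267 CPM and a highest value of 3.31 CPM in the 42 libraries. Slc5a7, the choline transporter gene, was 12.8, 10.9 and 11.8 CPM in the same order, against a median of 2.54 CPM. The 42 libraries reached 15.3 CPM of it. Chat was 4.75, 4.11 and 4.73 CPM, where the 42 libraries reached 6.14 CPM. Slc10a4 was 2.78, 3.48 and 3.14 CPM, where they reached 4.65 CPM. The part of these neurons in the members' values was not tested.

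The habenula, which adjoins the thalamus and also expresses Tcf7l2, was marked in 2 of these 3 libraries. The nicotinic receptor gene Chrnb4 was 5.26 CPM in the Q92 library and 1.56 CPM in the female WTwithQ50 library, against a median of 0.210 CPM, and Pou4f1, a transcription factor of habenular neurons, was 2.06 and 0.702 CPM against 0.0436 CPM. In the male WTwithQ50 library Chrnb4 was 0.712 CPM and Pou4f1 0.0548 CPM. Summed over 5 habenula genes, the Q92 group at 10 months reached 29.6 CPM in its highest library with a median of 5.08 CPM.

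**Figure D4:**
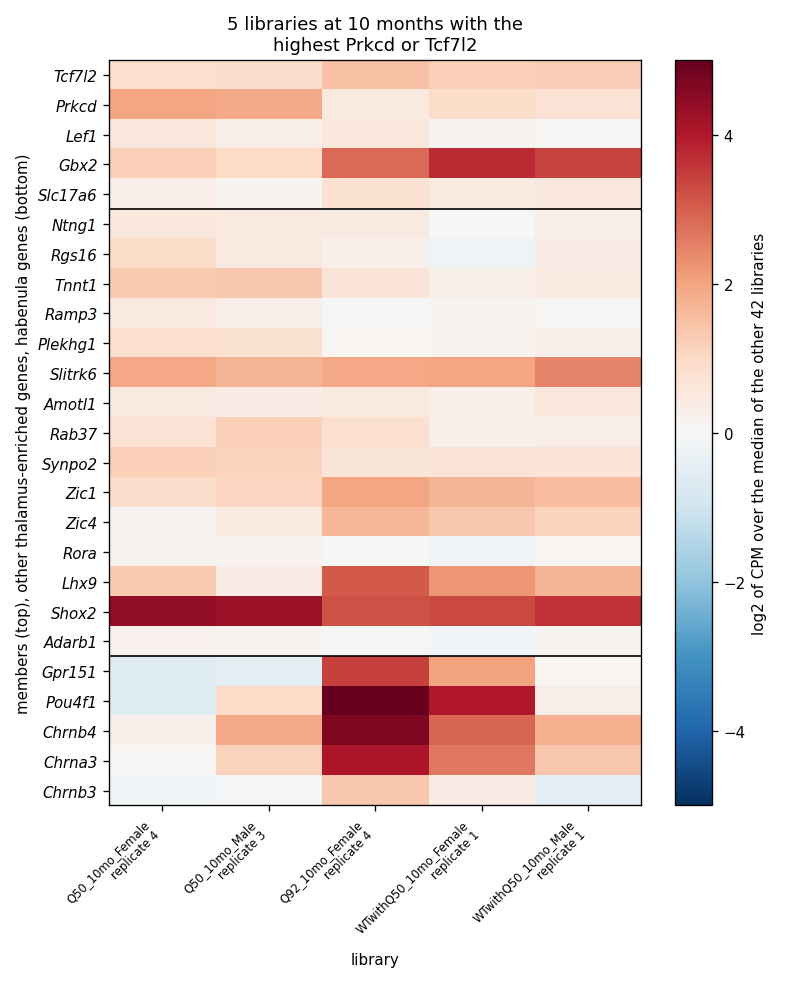
Log2 of the CPM of each member, other thalamus-enriched gene and habenula gene (rows) over the median of the other 42 libraries at 10 months, in the 5 libraries with the highest Prkcd or Tcf7l2 (columns), with red for above that median and blue for below. Prkcd and Shox2 are darkest in the Q50 libraries, and the habenula genes in Q92 female replicate 4.

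Among libraries of the same line, age and sex, 4 of the members varied together. Of these, Gbx2 had fewer than 5 counts in 43 libraries, so many of its deviations turn on single counts and on the prior count. The pairs of Gbx2 are given as a description. Deviations of log2 CPM from the group mean were correlated over 95 libraries for the 10 pairs, with two-sided permutation tests (100000 permutations within groups, smallest possible p 1e-05) adjusted over the 10 pairs, and 7 pairs passed. Tcf7l2 went with Slc17a6 (Pearson r = 0.63, rho = 0.56, permutation adjusted p = 5e-05), with Gbx2 (r = 0.61, rho = 0.55, permutation adjusted p = 5e-05) and with Prkcd (r = 0.57, rho = 0.53, permutation adjusted p = 0.00017). Leaving out the 2 libraries farthest from the median of Tcf7l2 gave r = 0.56, 0.59 and 0.58 for those pairs.

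Gbx2 also went with Slc17a6 (r = 0.47, rho = 0.40, permutation adjusted p = 0.00065) and with Prkcd (r = 0.41, rho = 0.43, permutation adjusted p = 0.004). Prkcd went with Slc17a6 (r = 0.35, rho = 0.33, permutation adjusted p = 0.0074), and without the 2 farthest libraries these r were 0.43, 0.53 and 0.39. At 6 months alone only 3 pairs passed: Tcf7l2 with Gbx2 (r = 0.56), Tcf7l2 with Slc17a6 (r = 0.46) and Prkcd with Gbx2 (r = 0.42). At 10 months alone, Tcf7l2 with Slc17a6 had r = 0.73 and Tcf7l2 with Gbx2 r = 0.67. Lef1 had r = -0.02 with Gbx2, 0.13 with Slc17a6 and 0.25 with Tcf7l2, none of which passed. At 10 months alone Lef1 with Tcf7l2 had r = 0.37 (rho = 0.35), which passed (permutation adjusted p = 0.025), and under DESeq2 size factors the pooled r = 0.25 had a permutation adjusted p of 0.049. The r = 0.31 of Lef1 with Prkcd (rho = 0.21) passed (permutation adjusted p = 0.035) and was 0.16 without the 2 Q50 libraries of highest Prkcd, and -0.099 at 6 months alone, so the relation rests on those libraries.

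**Figure D5:**
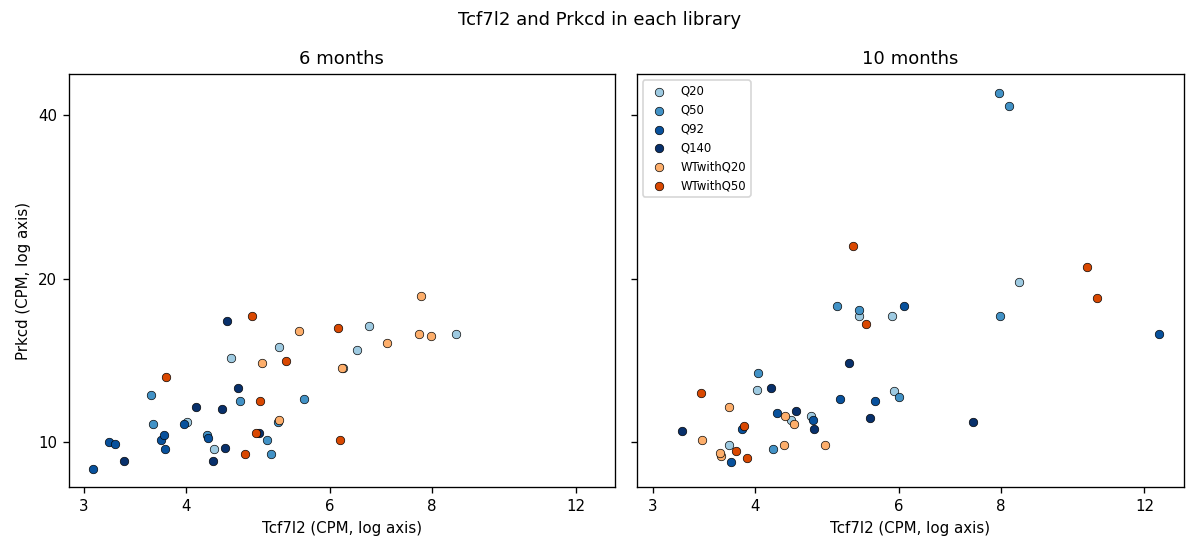
Tcf7l2 (x axis) against Prkcd (y axis) in CPM on log axes, 1 point per library, coloured by line or wild-type group, at 6 months (left) and 10 months (right). The 2 Q50 libraries above 40 CPM of Prkcd lie near 8 CPM of Tcf7l2, while the 3 libraries above 10 CPM of Tcf7l2 lie between 15.8 and 21 CPM of Prkcd.

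The genes whose deviations were most like each member's were found among 14668 genes of at least 1 CPM on average, as a description over the same 95 libraries. For Tcf7l2 they were Sparc, Calb2, Syt9, Zic1 and Slc6a11, with r between 0.68 and 0.70. For Prkcd they were Ret, Zic1, Plekhg1, Col6a3 and Synpo2, with r between 0.58 and 0.63, of which Zic1, Plekhg1 and Synpo2 are on the list of thalamus-enriched genes. For Slc17a6 they were Agt, which encodes angiotensinogen, then Tmem255a, Tmem130, Timp2 and Gprasp2, with r between 0.69 and 0.75. For Lef1 they were Mrc2, Wfikkn2, Gstm2, Aebp1 and the collagen gene Col1a2, with lower r between 0.48 and 0.50. Gbx2, below 1 CPM on average, was left out of this search.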

How the data were processed

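Messenger RNA of cortex was sequenced from frozen tissue, with RNA extracted by the Qiagen miRNeasy kit per the labels. The authors deposited 1 table of estimated counts per gene, of which 68% of nonzero values were whole, and 1 of FPKM, counts scaled by gene length and depth. CASAVA 1.8.2 is named in the submitters' processing notes. For the aligner, counter, genome build, annotation and strand setting, nothing was given in the sources used here, so reads of overlapping or antisense genes cannot be told apart. Column names of both tables were matched to the samples' labels.

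Counts were rounded, filtered (filterByExpr, minimum count 10, minimum total 15), scaled by TMM and tested by edgeR 4.0.16 (glmQLFit, robust) in R 4.3.3, with 1 fit for each age and 1 for both ages. Of 39179 rows, the 6-month fit tested 17716, the 10-month fit 17813 and the joint fit 18187. Log2 CPM used a prior count of 1. The procedure was tested on simulated data. All genes there shared the same dispersion and no library was made to stand apart, so libraries far from their group are not covered. Alternatives were DESeq2 1.42.0, limma 3.58.1 (voom, and log2 FPKM with pseudocounts of 0.1 and 1), other filters, the L codes in the column names as a factor, libraries without a D code left out (9), single sexes, other wild types and each library left out. Genes named beside the members are the most alike of each and those of the lists that passed. The members and gene lists were chosen with earlier results of these data known.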

Additional observations from a re-analysis of the deposited data

Results flagged for a closer look

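In 4 of 60 checks (each of 5 members in each of 12 groups of line and age), 1 library lay apart from the rest of its group by more than Dixon's criterion allows, and chance gives such a gap in about 1 of 20 such checks. Tcf7l2 was 3.36 CPM in Q140 male replicate 1 at 6 months, where the other 7 libraries of that line held 4.11 to 4.91 CPM. It was 12.5 CPM in Q92 female replicate 4 at 10 months, where the others held 3.74 to 6.10 CPM. Lef1 was 4.51 CPM in WTwithQ20 male replicate 2 at 6 months, where the others held 5.43 to 6.28 CPM. Slc17a6 was 34 CPM in Q92 male replicate 3 at 6 months, where the others held 26.8 to 29.4 CPM.

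The difference from wild type changed between ages in 4 cases by edgeR. The change, 10 months minus 6 months on the log2 scale, was 3.71 for Gbx2 in Q20, 0.902 for Tcf7l2 in Q92, 4.41 for Gbx2 in Q92 and 4.31 for Gbx2 in Q140. The Gbx2 values rest on groups with a few counts in all. The wild types of the 2 ages are part of each, and age and cohort cannot be told apart. Gbx2 itself was lower at 10 months in WTwithQ20, with a mean of 0.0302 CPM against 0.765 CPM at 6 months. In WTwithQ50 its mean was higher at 10 months, 0.556 CPM against 0.295 CPM, but its median was lower, 0.289 CPM against 0.326 CPM. Female replicate 1 and male replicate 1 of that group at 10 months held 1.68 and 1.31 CPM.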

How the results depend on the processing

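The counts of members here include Gbx2, which the results above leave out of the counts at 6 months. It entered the fits only through groups where it was high, so its part in these counts is a description. The count of 1 for the repeat-length slope at 6 months is Gbx2 alone. In Q92 mice at 6 months the count was 3 in the 48 fits that each left out 1 library, and 2 under a minimum mean of 1 CPM and both filtered FPKM fits, which remove Gbx2, in females alone and against WTwithQ50 alone, without Prkcd, and in males alone, without Tcf7l2. In Q140 mice at 6 months it was 1 under a minimum mean of 1 CPM, both filtered FPKM fits, the L code and WTwithQ50 alone, and 0 in females alone, against 2. It was 3 without libraries lacking a D code (Prkcd -0.405, adjusted p = 0.008 by edgeR) and against WTwithQ20 alone (Prkcd -0.396, adjusted p = 0.033). In males alone it was 2, with Prkcd (-0.384, adjusted p = 0.019) in place of Tcf7l2 (-0.335, adjusted p = 0.33). Gbx2 is removed by the minimum of 1 CPM and by the FPKM filter, which leaves the repeat-length slope at 6 months with 0 and wild-type age with 0 under these, against 1 each. That slope had 2 under voom and without libraries lacking a D code. The wild-type age count was 2 under voom and without the libraries of Tcf7l2 above 10 CPM. For Q20 at 10 months the count was 0, against 1, with no filter, 1 CPM, voom, 3 FPKM fits, the L code, libraries lacking a D code left out, females alone, both wild-type groups or the libraries of Prkcd above 40 CPM left out, and DESeq2 gave no adjusted p. Between wild types at 10 months it was 0 under 1 CPM, voom, 3 FPKM fits and without the libraries of Tcf7l2 above 10 CPM, and 2 without those of Prkcd above 40 CPM, against 1.

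For the change between ages, Q20 had 0 with no filter, 1 CPM, 3 FPKM fits, the L code, libraries lacking a D code left out and both wild-type groups, against 1. Q50 had 2 with both wild-type groups, Prkcd (1.14) and Gbx2 (3.07), against 0. Q92 had 1 under 1 CPM and the filtered FPKM fits and 0 with WTwithQ50 alone, against 2. Q140 had 0 under 1 CPM, 3 FPKM fits and WTwithQ50 alone, and 2 with WTwithQ20 alone and without the libraries of Tcf7l2 above 10 CPM, against 1. Where a filter does not remove the gene, the cause was not tested. The fits without the libraries of high Tcf7l2 or Prkcd were chosen after seeing the data.

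Leaving out 1 library at a time gave between 1 and 3 members for Q140 at 6 months, 0 and 1 for sex at 6 months, 1 and 2 for the slope at 6 months, 0 and 1 for Q20 at 10 months, 0 and 1 for the age changes of Q20 and Q140, and 1 and 2 for the age change of Q92 and for wild-type age. The slope of Prkcd passed without Q140 female replicate 2 (-0.304, adjusted p = 0.024 by edgeR). The Gbx2 change in Q140 did not pass without Q140 female replicate 4 at 10 months (3.92, adjusted p = 0.11). Tcf7l2 passed between ages in wild types without WTwithQ50 male replicate 1 at 10 months (-0.348, adjusted p = 0.04). Lef1 passed between sexes without Q20 male replicate 1 (adjusted p = 0.039), WTwithQ50 female replicate 2 or WTwithQ20 male replicate 3. Gbx2 in the age change of Q20 passed in 77 of 95 such fits.

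At 6 months alone 3 pairs of members were correlated, against 7, with pairs of Gbx2 included as a description, and Prkcd with Lef1 had r = -0.099. Libraries with the same number did not vary together: the mean correlation was 0.0062 at 6 months and -0.0097 at 10 months, and 15 of 48 and 9 of 47 libraries correlated best with their own number. With a replicate block the member counts were 3 in Q92 and 2 in Q140 at 6 months, and 1332 genes in all were called in Q92, against 1387 without it. Leaving out the 2 libraries with over 13% mitochondrial counts changed the number of members called in none of the comparisons, and neither did the block. Of 7138 member values recomputed, 210 that were not called changed sign. Gbx2, at a few counts per library, is limited by depth, and its fitted fold changes depend on the prior count.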

Other observations

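Genes of the olfactory bulb and of the choroid plexus also differed in the lines in which Tcf7l2 and Gbx2 were lower. At 6 months 7.83% of all genes passed in Q92 and 3.52% in Q140. In Q92 mice at 6 months all 5 olfactory bulb genes were lower by edgeR, with a median log2 fold change of -1.65, and Eomes, a transcription factor of bulb projection neurons, averaged 0.0532 ± 0.045 CPM in Q92 (SD, n = 8) and 1.77 ± 2.7 CPM in wild types (SD, n = 16). In Q140 mice 1 of the 5 passed, Th, the tyrosine hydroxylase gene. Of 7 choroid plexus genes 4 were higher in Q92 and 6 in Q140, with medians of 2.15 and 2.66. Ttr, the transthyretin gene, averaged 517 ± 580 CPM in Q92 and 674 ± 810 CPM in Q140 (SD, n = 8 each), against 130 ± 270 CPM in wild types (SD, n = 16). The summed choroid plexus level spread from 19.8 to 1400 CPM in Q92, against 16.7 to 1110 CPM in WTwithQ20 and 18.7 to 66.1 CPM in WTwithQ50, and the groups overlapped. The part of these tissues in the members' values was not tested.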
